A study of Mus musculus with 2 samples.

Results

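Described here are 82 genes in GFP-positive cells from the electroporated cortex of warmed mouse embryos. They encode molecular chaperones, their co-chaperones, the heat shock transcription factors and a pair of cold-inducible RNA-binding proteins. They were chosen by gene symbol, from the families Hspa, Hspb, Hspd1, Hspe1, Hsph1, Hsp90, Dnaja, Dnajb, Dnajc, Hsf, Bag and Cct with Cryab, Cirbp, Rbm3, Serpinh1, Stip1, Ahsa1 and Chordc1. A mean level of 1 RPKM or more over both libraries was required, where RPKM is a read count divided by gene length and by the read total of the library. Of 16103 genes in the deposited table, 86 matched by symbol and 82 passed this minimum. Just inside it was Hspb1, at a mean of 1.11 RPKM, and just outside it was Dnajb13, at 0.882 RPKM.

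RNA was sequenced from 1 library labelled Control and 1 labelled TRPM2-KD. Embryos of the outbred ICR stock received a control or a Trpm2 knockdown plasmid by in utero electroporation of the cortex at embryonic day 13, and GFP-positive cells were sorted at embryonic day 15. Both libraries come from the warm condition, so neither shows these genes at normal temperature. The knockdown library carries the construct name TRPM2-sh1, and no other knockdown construct was analysed here. Effects of that construct and of any lowering of Trpm2 therefore cannot be told apart. Not given in the sources used here are the temperature, its duration and the number of embryos in each library.

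Reads summed to 26209192 in Control and 20791236 in TRPM2-KD. Each group has a single library, so no difference could be checked in replicates or tested between the conditions, and every interval below covers counting error only. Trpm2, a warmth-activated calcium-permeable channel, had 0.745 RPKM in Control against 0.604 in TRPM2-KD, from 241 and 155 reads. Its ratio was 0.811 (0.658 to 0.996). Trpm2 was thus under 1 RPKM in both libraries. An interval below 1 was also found for 28.4% of all genes with a mean of 1 RPKM or more. The strength of the knockdown was not tested. All 8 radial glia markers checked were present in both libraries, with a summed level of 557 RPKM in Control and 595 in TRPM2-KD, and so were all 6 neuronal markers, at 1657 and 1519 RPKM.

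Chaperones bind unfolded or partly folded proteins and keep them from aggregating until they fold or are degraded. HSP70 proteins do so in cycles of ATP hydrolysis that J-domain proteins start and that HSP110 and BAG proteins help to end, HSP90 acts on kinases, receptors and other near-native clients, and the ring-shaped chaperonins enclose their substrates. On heat, the transcription factor HSF1 is released from chaperones and switches on a subset of these genes, whereas cooling raises the RNA-binding proteins encoded by Cirbp and Rbm3. Unfolded protein in the endoplasmic reticulum (ER) switches on a separate set through other factors.

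HSF1 binds heat shock elements, arrays of the unit NGAAN in alternating orientation. Promoter windows from RefSeq (GRCm38.p6), from 250 bases before to 50 after each start, were found for 66 of the 82 genes and searched on both strands. A run of 3 units, GAANNTTCNNGAA or its reverse complement, stood in 0.603% of all 32851 windows, and in those of Hspd1, Hspe1, Dnajb6, Hsph1 and Chordc1 among these genes. Each such match also holds the shorter pair GAANNTTC, which stood in 7.86% of all windows and in those of 13 of these genes, and the pair TTCNNGAA, which stood in 8.52% and in 9. The ER stress response element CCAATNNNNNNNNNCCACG stood in 0.119% of windows, and in those of Hspa5, Hsp90b1 and Dnajc3 among these genes. A match is a description of the letters and not evidence of binding.

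The sequences below show the element shared by the mitochondrial chaperonin genes, the pairs of the small heat shock genes at the lowest ratios between the libraries, and the element of the most abundant ER chaperones. Hspd1 and Hspe1 lie head to head and share a heat shock element, here read from each side at chr1:55088054-55088081, on the plus strand for Hspe1 and the minus strand for Hspd1. Hspb1 (chr5:135887772-135887859, plus strand) and Hspb6 (chr7:30553151-30553218, plus strand) carry shorter pairs of units. Hspa5 (chr2:34772020-34772048, plus strand) and Hsp90b1 (chr10:86705518-86705671, minus strand) carry the ER stress response element, and Hsp90b1 has 2 of them on opposite strands. All lie before the RefSeq start of the gene they are named for, run 5′ to 3′ on its strand and have the element in capitals. In the GENCODE M21 annotation, those of Hspe1, Hspd1 and Hspa5 lie wholly within exons of protein-coding genes. Those of Hspb1, Hspb6 and Hsp90b1 do not overlap such exons.
Hspe1: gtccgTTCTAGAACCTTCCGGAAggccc
Hspd1: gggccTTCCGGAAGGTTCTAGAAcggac
Hspb1: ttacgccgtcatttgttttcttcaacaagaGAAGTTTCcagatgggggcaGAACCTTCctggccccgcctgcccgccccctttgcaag
Hspb6: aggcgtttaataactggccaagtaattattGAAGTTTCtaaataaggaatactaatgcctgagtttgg
Hspa5: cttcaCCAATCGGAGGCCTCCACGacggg
Hsp90b1: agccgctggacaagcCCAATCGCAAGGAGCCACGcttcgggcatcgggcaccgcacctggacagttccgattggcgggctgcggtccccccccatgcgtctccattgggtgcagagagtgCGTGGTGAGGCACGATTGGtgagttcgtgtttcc

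Most of these genes were at much the same level in both libraries. The median difference in log2(RPKM + 1), TRPM2-KD minus Control, was -0.03 over the 82 genes and -0.004 over all 13988 genes with a mean of 1 RPKM or more, with 35 of the 82 above 0 and 47 below. On this scale, which understates the differences of weakly expressed genes, 0 genes were at least 1.5-fold higher and 1 was at least 1.5-fold lower, against 3.55% and 2.82% of all genes. The plain RPKM ratio of each gene was given an exact conditional binomial (Clopper-Pearson) 95% interval from its reads. That interval lay above 1 for 23 genes (28.0% of all genes) and below 1 for 31 (28.4% of all genes). The share above 1 equals the background, and the share below 1, at 37.8%, is larger by a margin that was not tested. At 50 RPKM or more, 10 of 22 of these genes had an interval below 1, or 45.5%, against 52.2% of all genes at that level.

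As for genes in general, ratios spread more at low levels. Of the 63 genes with a mean of 5 RPKM or more, 58 had a ratio between 0.8 and its reciprocal, against 7 of the 19 below 5 RPKM. These shares are 92.1% and 36.8%, against 84.3% and 51.1% of all genes at those levels. A ratio at or above the reciprocal of 0.8 with an interval above 1 was found for 6 genes, or 7.32%, against 12.6% of all genes. A ratio of 0.8 or less with an interval below 1 was found for 11, or 13.4%, against 11.5% of all genes. The 11 include all 5 small heat shock genes. Read depth bears on these shares, so they were also taken over the genes with 1000 or more reads, 62 of the 82. Of the 62, 0 were past 1.5-fold in either direction, against 0.441% of all such genes higher and 0.334% lower. Intervals lay above 1 for 16 of the 62, against 28.8% of all such genes, and below 1 for 23, or 37.1%, against 31.1%. Ratios past 0.8 or its reciprocal with an interval on that side were found for 0 genes above, against 5.47%, and for 3 below, against 5.38%. In the authors' deposited table, which compares the same libraries, 0 of the 82 genes has a p-value under 0.05, against 1.56% of the 13988 genes.

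**Figure D1:**
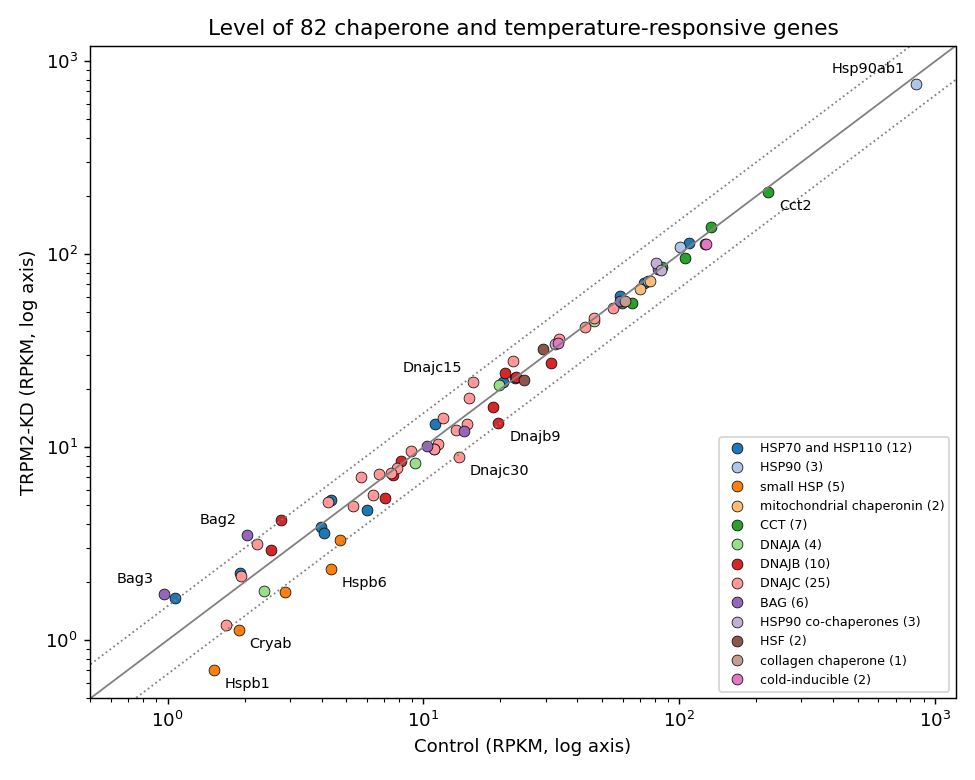
Level of each of the 82 genes in Control (horizontal axis) and TRPM2-KD (vertical axis), in RPKM on log axes, coloured by family. The solid line marks equal levels and the dotted lines 1.5-fold, and most points lie between the dotted lines. Under them are Hspb1, Hspb6, Hspb8, Cryab and Dnajc30, and above them are Bag3, Bag2, Hspa2 and Dnajb3.

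Small heat shock proteins are ATP-independent holdases that keep unfolding proteins soluble. All 5 small HSP genes measured were lower in TRPM2-KD, each with an interval below 1. All 5 had a mean under 5 RPKM. Of all 4632 genes under that level, 1036 had an interval below 1 (22.4%) and 1390 had one above. The median log2 difference of those 4632 genes was 0.04. Hspb6, a small chaperone of smooth and cardiac muscle, had 4.34 RPKM in Control against 2.34 in TRPM2-KD, from 262 and 112 reads. Its ratio of 0.539 (0.428 to 0.675) made it the 1 gene past 1.5-fold on the log2(RPKM + 1) scale. Hspb8, which works with BAG3 in the autophagy of misfolded proteins, had 2.87 RPKM in Control against 1.77 in TRPM2-KD from 147 and 72 reads, a ratio of 0.617 (0.459 to 0.824). Cryab, the alpha-B crystallin of lens and muscle, had 1.90 RPKM in Control against 1.14 in TRPM2-KD from 59 and 28 reads, and its ratio was 0.598 (0.367 to 0.953). Hspb1, the main heat-inducible small chaperone, was at the lowest ratio of all 82 genes, 0.461 (0.237 to 0.851), with 1.52 RPKM in Control against 0.699 in TRPM2-KD from only 41 and 15 reads. It passed the 1 RPKM minimum through Control alone and so had to differ, whereas the other 4 were above 1 RPKM in both libraries. Hspb11 carries the family symbol but is known as the intraflagellar transport subunit IFT25. It was the most abundant of the 5 and nearest to 1, with 4.73 RPKM in Control against 3.32 in TRPM2-KD from 257 and 143 reads, at a ratio of 0.701 (0.568 to 0.864).

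These 5 genes are weakly expressed. Their summed level was 15.4 RPKM in Control and 9.26 in TRPM2-KD, a ratio of 0.603, and their median difference in log2(RPKM + 1) was -0.48. Hspb1 and Cryab reads are uncertain. For Hspb1, 51.6% of the 50-base stretches of its transcript also occur in other annotated genes, and 17.0% of the exon bases of Cryab lie opposite those of its neighbour Hspb2. Among the 13 genes whose promoter windows hold the pair GAANNTTC, 3 are small heat shock genes, Hspb1, Hspb6 and Hspb8, and Bag3 is another. Ratios of the 13 ran from 0.461 for Hspb1 to 1.80 for Bag3, with 5 above 1, Dnaja1, Hsph1, Chordc1 and Dnajc27 among them, and 8 below. Hspb1 and Bag3 each passed the 1 RPKM minimum through a single library, and the rest ran from 0.539 for Hspb6 to 1.22 for Dnajc27. Short genes were slightly lower in TRPM2-KD in general, and with the median of genes of like length subtracted the small HSP median was -0.44.

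Cells other than radial glia and neurons also express small heat shock genes, and summed levels of some of their markers differed between the libraries. The cells were sorted for GFP, and how far the sort left out cells without the plasmid was not tested. In bulk RNA, fewer cells of a type and less RNA per cell cannot be told apart. Of 7 endothelial markers 5 were below 0 on the log2 scale, with a summed level of 125 RPKM in Control and 105 in TRPM2-KD. Of 6 meningeal fibroblast markers 5 were below 0, with sums of 79.9 and 61.9 RPKM, and of 3 choroid plexus markers measured 2 were below 0, with sums of 409 and 287 RPKM. For 6 mural cell markers, 4 above 0 and 2 below, the sums were 43.1 and 45.8 RPKM, and for 9 microglia markers, all above 0, they were 140 and 225 RPKM. Of 6 erythroid markers 3 were above 0 and 3 below, with sums of 73.2 and 76.4 RPKM. None of the markers in the table was at 0 reads in either library. The part of these cells in the small heat shock differences was not tested.

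**Figure D2:**
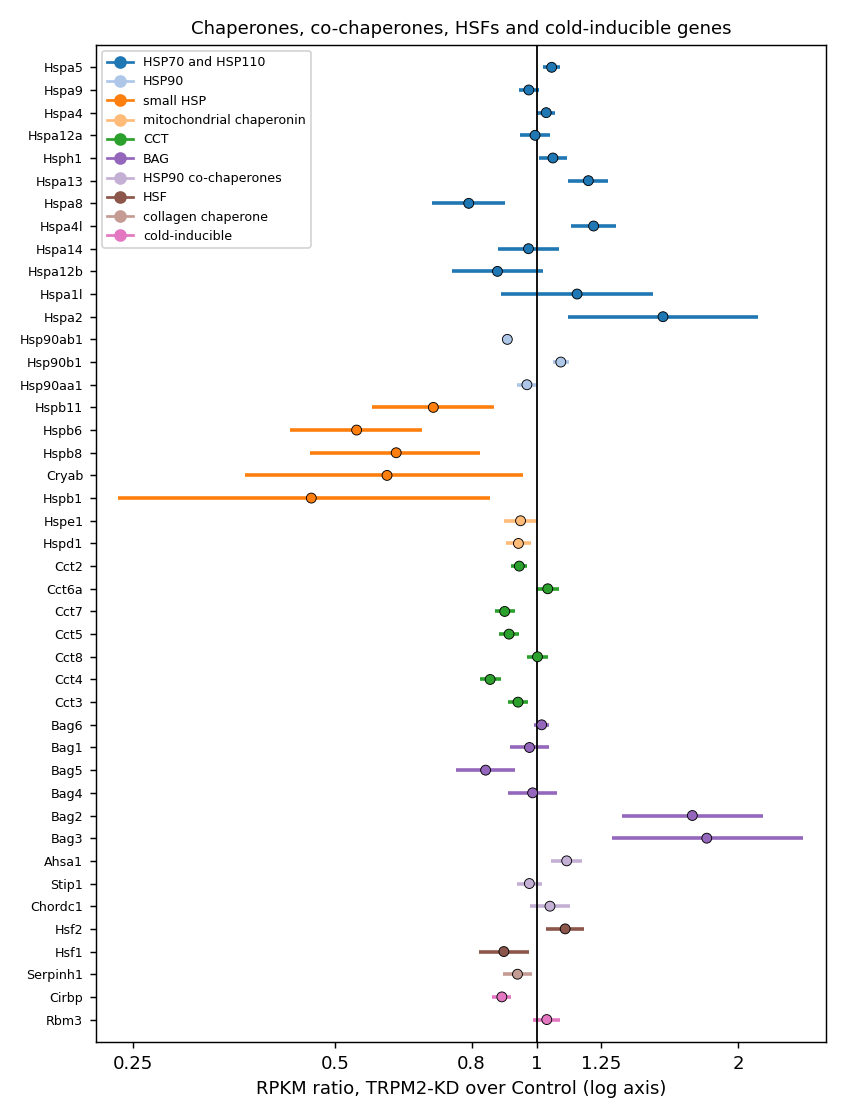
RPKM ratio of TRPM2-KD over Control (log axis) for the 43 genes that are not J-domain proteins, with the 95% counting interval as a bar, ordered by family and by level. The 5 small HSP genes lie left of 1 with wide bars, Bag2 and Bag3 lie right of it, and the abundant HSP90 and CCT genes have narrow bars near 1.

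The HSP70 and HSP110 genes were near equal or slightly higher in TRPM2-KD. Of 12 genes 7 were above 0, with a median log2 difference of 0.06. Intervals lay above 1 for 6 (50%) and below 1 for 1 (8.33%), against 28.0% and 28.4% of all genes. Hspa5 encodes BiP, the HSP70 of the ER, and was the most abundant of the family, with 109 RPKM in Control against 115 in TRPM2-KD, at a ratio of 1.05 (1.02 to 1.08). Hspa9, the mitochondrial HSP70 that pulls in imported proteins, had 72.7 RPKM in Control against 70.8 in TRPM2-KD, at a ratio of 0.974 (0.941 to 1.01), with an interval that holds 1. Hspa4, an HSP110-type nucleotide exchange factor, had 58.8 RPKM in Control against 60.8 in TRPM2-KD, at a ratio of 1.03 (1.0017 to 1.07). Hsph1, the heat-inducible HSP110, had 20.5 RPKM in Control against 21.7 in TRPM2-KD, at a ratio of 1.06 (1.01 to 1.11). All 4 differed by less than 1.1-fold.

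Larger ratios in this family belonged to genes with fewer reads. Hspa2, an HSP70 best known from male germ cells, was at 1.54 (1.12 to 2.14), with 1.07 RPKM in Control against 1.66 in TRPM2-KD from 71 and 87 reads. Hspa13, a microsomal HSP70, and Hspa4l, a further HSP110 gene, were at 1.20 (1.12 to 1.28) and 1.22 (1.13 to 1.31). Hspa8, the constitutive cytosolic HSP70, was the 1 member with an interval below 1, with 6.0 RPKM in Control against 4.75 in TRPM2-KD from 654 and 411 reads, at a ratio of 0.792 (0.699 to 0.898). Its reads are uncertain, since 52.7% of the 50-base stretches of its transcript also occur in other annotated genes. At 5.37 RPKM on average it lay above only 35.2% of all genes, and no source used here says how reads with several matches were treated. The remaining members, Hspa12a, Hspa12b, Hspa14 and Hspa1l, had ratios from 0.874 to 1.15 with intervals that hold 1.

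The 3 HSP90 genes lay on both sides of 1. Hsp90ab1, the constitutive cytosolic HSP90, was the most abundant of all 82 genes, with 840.5 RPKM in Control against 760.2 in TRPM2-KD from 66140 and 47463 reads. It held 23.8% of the summed RPKM of the 82 genes in Control and 22.4% in TRPM2-KD, and its ratio was 0.905 (0.894 to 0.915). With so many reads the interval is narrow, although the difference is small. Hsp90aa1, the heat-inducible cytosolic form, had 75.1 RPKM in Control against 72.7 in TRPM2-KD, at a ratio of 0.968 (0.935 to 1.0010), an interval that holds 1, and 58.5% of its 50-base stretches are shared with other annotated genes. Hsp90b1, the ER form known as GRP94, was higher, with 100.2 RPKM in Control against 109 in TRPM2-KD, at a ratio of 1.09 (1.06 to 1.12). Of its exon bases, 10.3% lie opposite another annotated gene.

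The co-chaperones of HSP90 were close to equal. Ahsa1, which speeds the ATPase of HSP90, had 81.1 RPKM in Control against 89.9 in TRPM2-KD, at a ratio of 1.11 (1.05 to 1.17). Stip1, the adaptor HOP that links HSP70 to HSP90, had 85.1 RPKM in Control against 83.1 in TRPM2-KD, at a ratio of 0.976 (0.935 to 1.02). Chordc1, a heat-inducible HSP90 partner, had 32.6 RPKM in Control against 34.1 in TRPM2-KD, at a ratio of 1.05 (0.979 to 1.12). Only the interval of Ahsa1 excludes 1.

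The cytosolic chaperonin CCT folds actin and tubulin in a double ring of 8 different subunits. Of the 7 subunit genes taken by symbol, 5 had an interval below 1 and 0 had one above, with a median log2 difference of -0.09. All 7 are abundant, and of all 1068 genes at 50 RPKM or more 52.2% had an interval below 1 and 19.7% above, with a median of -0.07. Cct2 was the most abundant, with 223 RPKM in Control against 209.8 in TRPM2-KD, at a ratio of 0.942 (0.916 to 0.969). Cct4 was at the lowest ratio, 0.853 (0.822 to 0.884), with 65.2 RPKM in Control against 55.5 in TRPM2-KD. In between were Cct7 at 0.896 (0.867 to 0.927), Cct5 at 0.910 (0.879 to 0.942) and Cct3 at 0.938 (0.906 to 0.972). Cct8 was at 1.0033 (0.968 to 1.04) and Cct6a at 1.04 (0.9994 to 1.08), both with intervals that hold 1, and 12.5% of the exon bases of Cct6a lie opposite another gene. Levels per length differed more between subunits than between libraries, from 57.7 RPKM on average for Cct3 to 216 for Cct2, and the summed level of the 7 was 797 RPKM in Control and 754 in TRPM2-KD. Tcp1, the remaining subunit, does not carry a Cct symbol and was picked out after its value was seen; it had 66.2 RPKM in Control and 64.2 in TRPM2-KD, a ratio of 0.970 (0.939 to 1.0012).

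The mitochondrial chaperonin is made of the HSP60 barrel from Hspd1 and the HSP10 lid from Hspe1. The genes share the promoter shown above and were near each other in both level and ratio. Hspd1 had 70.4 RPKM in Control against 66.1 in TRPM2-KD, at a ratio of 0.940 (0.900 to 0.981), and Hspe1 had 76.5 RPKM in Control against 72.4 in TRPM2-KD, at a ratio of 0.947 (0.896 to 1.0005). The upper end for Hspe1 just reaches 1. For Hspd1, 44.8% of the 50-base stretches are shared with other annotated genes.

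BAG proteins release nucleotide from HSP70 and steer its clients to different fates. Bag6, which guides tail-anchored and misfolded proteins, and Bag1, which links HSP70 to the proteasome, were near 1, at 1.02 (0.992 to 1.04) and 0.976 (0.914 to 1.04). Their levels were the highest of the family, with 82.8 RPKM in Control against 84.3 in TRPM2-KD for Bag6 and 58.5 RPKM in Control against 57.1 in TRPM2-KD for Bag1. Bag3, the heat-inducible member that works with HSPB8 in autophagy, was at the highest ratio of the 82 genes, 1.80 (1.30 to 2.50), with 0.971 RPKM in Control against 1.74 in TRPM2-KD from 66 and 94 reads. Bag2, which inhibits the ubiquitin ligase CHIP, followed at 1.71 (1.34 to 2.18), with 2.05 RPKM in Control against 3.50 in TRPM2-KD from 121 and 164 reads. Bag5 was lower, with 14.5 RPKM in Control against 12.1 in TRPM2-KD, at a ratio of 0.839 (0.758 to 0.929), and Bag4 was at 0.987 (0.908 to 1.07). Bag3 was under 1 RPKM in Control and passed the minimum only through TRPM2-KD, where it is high, so its place at the top of the 82 is a description.

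**Figure D3:**
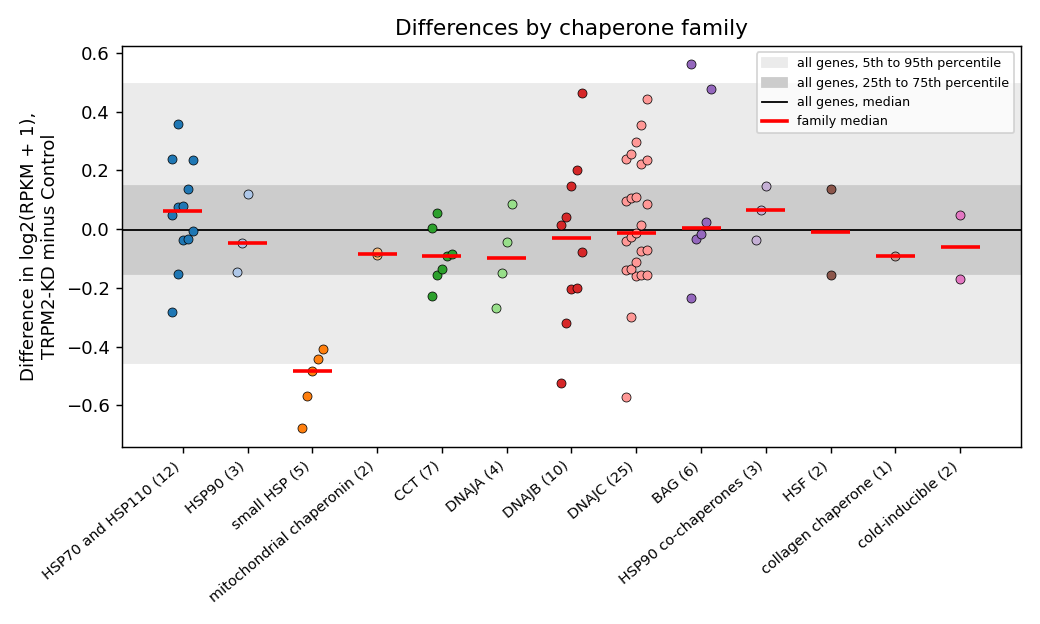
Difference in log2(RPKM + 1), TRPM2-KD minus Control, for each gene (points) by family, with the family median in red and the percentiles of all 13988 genes as grey bands. The small HSP points lie around or under the 5th percentile of all genes at -0.46, whereas the other families straddle or lie close to the all-gene median.

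J-domain proteins recruit HSP70 to its clients and start its ATPase, and 39 of them were measured. Of these, 18 were above 0 and 21 below, with a median log2 difference of -0.03, 12 intervals above 1 and 14 below. These are 30.8% and 35.9% of the 39, against 28.0% and 28.4% of all genes. Among DNAJA genes, Dnaja2 and Dnaja1, general cytosolic partners of HSP70, were at 0.969 (0.921 to 1.02) and 1.06 (1.02 to 1.11), with 46.4 RPKM in Control against 45.0 in TRPM2-KD for Dnaja2 and 19.8 RPKM in Control against 21.0 in TRPM2-KD for Dnaja1. Dnaja3, the mitochondrial member, was at 0.890 (0.805 to 0.984), with 9.25 RPKM in Control against 8.24 in TRPM2-KD. Dnaja4 was the lowest of the 4, with 2.38 RPKM in Control against 1.81 in TRPM2-KD from 224 and 135 reads, at a ratio of 0.760 (0.609 to 0.945). Since 44.1% of its exon bases lie opposite Wdr61 and no source used here states the treatment of strand, the reads of Dnaja4 are uncertain.

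The DNAJB genes spread more widely, 5 above 0 and 5 below. Dnajb1, the main heat-inducible HSP40, had 31.6 RPKM in Control against 27.3 in TRPM2-KD, at a ratio of 0.865 (0.805 to 0.929). Dnajb4, a cytosolic relative, had 7.08 RPKM in Control against 5.47 in TRPM2-KD, at a ratio of 0.773 (0.690 to 0.866), while Dnajb5, of the same group, was at 1.01 (0.962 to 1.06) with 22.9 RPKM in Control against 23.2 in TRPM2-KD. Dnajb9, an ER partner of BiP that is induced by ER stress, was lowest, with 19.6 RPKM in Control against 13.4 in TRPM2-KD from 961 and 519 reads, at a ratio of 0.681 (0.611 to 0.758). Dnajb11, a soluble ER partner of BiP, was on the other side, with 20.9 RPKM in Control against 24.1 in TRPM2-KD, at a ratio of 1.16 (1.08 to 1.24). Dnajb3, a testis gene in the mouse, had 2.77 RPKM in Control against 4.20 in TRPM2-KD from 74 and 89 reads, at a ratio of 1.52 (1.101 to 2.09).

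DNAJC genes share little beyond the J domain and serve many sites in the cell. The 25 genes had a median log2 difference of -0.01, with 8 intervals above 1 and 8 below. These are 32.0% each, against 28.0% and 28.4% of all genes. The 3 most abundant were near equal: Dnajc7, which binds HSP70 and HSP90 through tetratricopeptide repeats, at 0.952 (0.919 to 0.987), Dnajc9, a histone chaperone, at 1.01 (0.944 to 1.08), and Dnajc8, a spliceosome-associated protein, at 0.972 (0.919 to 1.03). Their levels were 55.0 RPKM in Control against 52.4 in TRPM2-KD for Dnajc7, 46.5 RPKM in Control against 46.9 in TRPM2-KD for Dnajc9 and 43.0 RPKM in Control against 41.7 in TRPM2-KD for Dnajc8. The largest ratios belonged to Dnajc28, at 1.40 (1.16 to 1.70) with 2.25 RPKM in Control against 3.16 in TRPM2-KD, and to Dnajc15, a mitochondrial import factor, at 1.38 (1.17 to 1.64) with 15.6 RPKM in Control against 21.6 in TRPM2-KD. The smallest belonged to Dnajc30, a mitochondrial protein, with 13.8 RPKM in Control against 8.94 in TRPM2-KD from 419 and 216 reads, at a ratio of 0.650 (0.549 to 0.768). Of its exon bases 26.2% lie opposite Bud23, so its reads are uncertain. Dnajc12, which binds aromatic amino acid hydroxylases, had 1.70 RPKM in Control against 1.19 in TRPM2-KD from 122 and 68 reads, at a ratio of 0.703 (0.514 to 0.953).

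Some further DNAJC genes were picked out by role after their values were seen. At membranes, Dnajc5, the cysteine string protein of synaptic vesicles, was at 1.08 (1.04 to 1.12), Dnajc13, an endosomal protein, at 1.18 (1.11 to 1.249), and Dnajc6, the neuronal auxilin that strips clathrin from vesicles, at 0.904 (0.840 to 0.972). Dnajc14, at 1.24 (1.17 to 1.31), has 19.1% of its exon bases opposite other genes. Dnajc2, which sits at the ribosome exit, was at 0.888 (0.829 to 0.952), and Dnajc11, a protein of the mitochondrial inner membrane organising complex, at 0.888 (0.840 to 0.939). Dnajc19, a relative of Dnajc15 at the import channel, was at 0.980 (0.880 to 1.09), so the pair differed in ratio. The remaining 12 J-domain genes had ratios from 0.864 to 1.23.

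**Figure D4:**
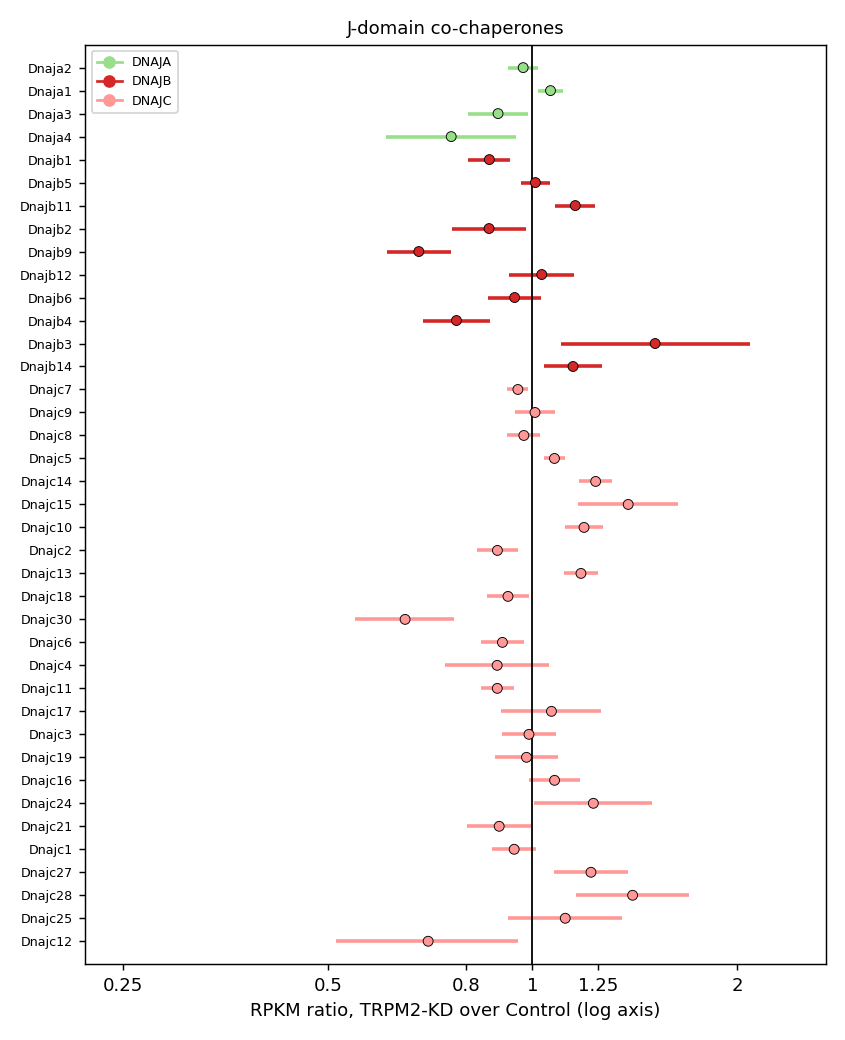
RPKM ratio of TRPM2-KD over Control (log axis) for the 39 J-domain genes, with the 95% counting interval as a bar, ordered by subfamily and by level. Points lie on both sides of 1, from Dnajc30 at 0.650 to Dnajb3 at 1.52, with wide bars for the genes of low level.

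By compartment, the ER genes among the 82 divided. Of 9 ER genes 5 had an interval above 1 and 2 below (against 28.0% and 28.4% of all genes), with a median log2 difference of 0.07 and summed levels of 350.2 RPKM in Control and 362 in TRPM2-KD. Besides Hspa5, Hsp90b1, Dnajb11 and Hspa13, the ER disulfide reductase gene Dnajc10 was higher, at 1.19 (1.12 to 1.27). Dnajc3, an inhibitor of the kinase PERK, was at 0.989 (0.902 to 1.08), and Dnajc1, an ER membrane protein, at 0.940 (0.872 to 1.01). Dnajb9 and Serpinh1, the collagen chaperone HSP47, were below 1, and Serpinh1 had 61.4 RPKM in Control against 57.5 in TRPM2-KD with a ratio of 0.937 (0.893 to 0.983). Of 7 listed mitochondrial genes 6 were below 0, with 3 intervals below 1 and 1 above. Their median log2 difference was -0.08, with sums of 263 and 256 RPKM. The list is not complete and takes in neither Dnajc30 at 0.650 nor Dnajc28 at 1.40. Dnajc15 was the listed gene above 0. Of the 3 genes with the ER stress response element, Hspa5 and Hsp90b1 had intervals above 1 and that of Dnajc3 holds 1.

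Genes listed as heat-inducible targets of HSF1 did not move as one. The list includes Hspa8 at 0.792 and Hsp90ab1 at 0.905, described above as constitutive, both with an interval below 1. Of 18 listed, 16 were among the 82, with 6 above 0 and 10 below, 5 intervals above 1 and 7 below (31.2% and 43.8%, against 28.0% and 28.4% of all genes), and a median log2 difference of -0.06. The 66 other genes had a median of -0.03. Ratios of the 16 ran from 0.461 for Hspb1 to 1.80 for Bag3, which each passed the 1 RPKM minimum through a single library. The rest ran from 0.598 for Cryab to 1.11 for Ahsa1. Of the genes with 3 heat shock units in a row, Hspd1, Hspe1 and Dnajb6 were at 0.940, 0.947 and 0.942, and Hsph1 and Chordc1 at 1.06 and 1.05. Hspa1b, the most strongly heat-induced HSP70, lay under the 1 RPKM minimum in both libraries, with 0.789 and 0.360 RPKM from 58 and 21 reads, a ratio of 0.456 (0.263 to 0.763). Of its 50-base stretches 62.3% are shared with other annotated genes. Hspa1a, the other listed gene outside the 82, was not measured under that symbol.

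Of the 4 heat shock factor genes, Hsf1 and Hsf2 passed the 1 RPKM minimum, and they differed little and in opposite directions. Hsf1, the main heat shock factor, had 24.8 RPKM in Control against 22.2 in TRPM2-KD, at a ratio of 0.894 (0.821 to 0.973). Hsf2, which acts in development as well as in stress, had 29.3 RPKM in Control against 32.3 in TRPM2-KD, at a ratio of 1.103 (1.03 to 1.18). Both intervals exclude 1. The cold-inducible genes also parted. Cirbp had 127 RPKM in Control against 113 in TRPM2-KD, at a ratio of 0.888 (0.859 to 0.917), and Rbm3 had 33.5 RPKM in Control against 34.7 in TRPM2-KD, at a ratio of 1.04 (0.990 to 1.08), with an interval that holds 1.

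Of 59 further genes of protein folding and quality control that the symbol rule does not take, 58 were measured. They had 12 intervals above 1 (20.7%), 22 below (37.9%) and a median log2 difference of -0.04. Over all genes the shares were 28.0% above 1 and 28.4% below, which also stand beside the lists that follow. Among 20 co-chaperones of HSP90 and HSP70, 4 intervals lay above 1 (20%) and 9 below (45%). Cdc37, which brings kinases to HSP90, had 63.9 RPKM in Control and 46.2 in TRPM2-KD, a ratio of 0.723 (0.687 to 0.761). Sgta, a co-chaperone that hands tail-anchored proteins on with BAG6, was at 0.788 (0.747 to 0.831). Hsp90ab1 and Bag6, the genes of their partners, were at 0.905 and 1.02. Of 12 ER chaperones outside the rule, 2 intervals lay above 1 (16.7%) and 5 below (41.7%). Of these 12, 9 were below 0, with a median log2 difference of -0.05, so the median of the 9 ER genes among the 82 and that of these 12 differ in sign. They include Sdf2l1, a BiP cofactor, at 0.686 (0.583 to 0.807) and Manf at 0.842 (0.795 to 0.892).

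Of 10 mitochondrial quality control genes, 2 intervals lay above 1 (20%) and 4 below (40%), against 28.0% and 28.4% of all genes. Their median log2 difference was -0.003, with 5 on each side of 0. Hscb, the J-domain protein of iron-sulfur cluster assembly, had 7.83 and 4.46 RPKM, at a ratio of 0.569 (0.435 to 0.740), and Grpel1, the nucleotide exchange factor of mitochondrial HSP70, was at 0.753 (0.684 to 0.829). Of 8 prefoldin and CCT partner genes, 2 intervals lay above 1 and 0 below, with Txndc9 at 1.12 (1.05 to 1.20) and Pfdn4 at 0.908 (0.820 to 1.01). Of 8 other heat-responsive genes, 2 intervals lay above 1 (25%) and 4 below (50%). Dedd2 was at 0.754 (0.654 to 0.870) and Hmox1, the heme oxygenase induced by heat and oxidants, at 1.32 (1.17 to 1.48).

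In reads, the 82 genes made up 1.13% of the Control library and 1.098% of the TRPM2-KD library. Their summed level was 3532 RPKM in Control and 3397 in TRPM2-KD, a ratio of 0.962, and without Hsp90ab1 it was 0.980. Across the 82 genes, which are not independent replicates, the difference in log2(RPKM + 1) had a Spearman rho of 0.21 with gene length, against 0.15 across all genes, and of -0.01 with mean level. Length was taken from the deposited counts and RPKM values, and all ratios share the same pair of libraries.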

How the data were processed

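In the authors' deposited table each gene has, per the file headers, its count of reads and its RPKM in both libraries, then the authors' log2 fold change, p-value and adjusted p-value between them. The deposited counts are whole reads. Build mm9, HTSeq 0.6.0, TopHat2 2.0.12 and Bowtie2 2.2.3 are listed, with no role or order, per the submitters' processing notes. Not given in the sources used here are the annotation, the use of strand and the treatment of reads with several matches.

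Ratios are deposited RPKM in TRPM2-KD over Control, for genes whose mean RPKM is at least 1. Exact conditional binomial 95% intervals were computed from the counts with scipy 1.17.1. They were checked on data simulated with counting error alone, so the check does not cover other variation between libraries. Depth was 26209192 and 20791236 reads; intervals cover counting error only, and PCR copies are not independent molecules. With 1 library per group no test was made. Alternatives were the pseudocount, the RPKM minimum, the fold, a minimum of 1000 reads, length, and scaling by edgeR 4.0.16 TMM or median-of-ratios factors.

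The members and lists were chosen with earlier results of these data known. Named members are those with a ratio of 0.8 or less, or of its reciprocal or more, and an interval without 1, the 3 most abundant of each family, all CCT subunits and a fixed set of 24 well-known genes, and, of each further list, the 2 largest log2 differences. Hspa12a, Hspa12b, Hspa13, Hspa14, Hspa1l, Hspa4l, Bag4 and the J-domain genes marked so in the text were added after their values were seen. Promoter windows are from RefSeq (GRCm38.p6). Shared 50-base stretches and overlapping exons are from GENCODE M21, on that later build, for gene structure only; 16 members without a promoter window are not shown there.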

Additional observations from a re-analysis of the deposited data

Results flagged for a closer look

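Among the 4 genes that match the symbols but lie under the mean of 1 RPKM, 2 had more reads in TRPM2-KD than in Control beyond counting error, and are given here because the report does not use them. Hsf4, a heat shock factor of the lens, had 0.217 RPKM in Control against 1.07 in TRPM2-KD, from 10 and 39 reads, a ratio of 4.92 (2.41 to 11.0). Hsf5, a heat shock factor gene of the testis, had 9 and 28 reads, or 0.0825 and 0.323 RPKM, a ratio of 3.92 (1.80 to 9.45). In the authors' deposited table the log2 fold change is 2.28 for Hsf4 and 1.96 for Hsf5, from 1 library per group. For Dnajb13, the other gene just under the minimum, the ratio was 0.615 (0.341 to 1.07).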

How the results depend on the processing

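No paired analysis was possible because there is 1 library per group. For the same reason no replicate could be left out. The median log2 difference of the 82 genes stayed between -0.04 and -0.01 under every alternative run. Family medians close to 0 changed sign for DNAJC (0.001) and HSF (0.03) with length subtracted and for BAG (-0.03) at 5 RPKM or more. With length subtracted, the medians were 0.03 for HSP70, -0.02 for HSP90, -0.06 for DNAJA, -0.05 for DNAJB and -0.03 for the mitochondrial chaperonin. At 5 RPKM or more they were -0.04 for DNAJA, -0.14 for DNAJB and -0.03 for DNAJC. The small HSP median was -0.69 with a pseudocount of 0.1 and could not be computed at 5 RPKM, where 0 of its genes remain. TMM and median-of-ratios factors shifted all log2 ratios by under 0.002. Among the named ratios, only Cct6a came to exclude 1, with median-of-ratios factors.

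The number of members at least 1.5-fold higher was 0 and that of members at least 1.5-fold lower was 1. With a pseudocount of 0.1 they were 2 and 5, against 5.88% and 4.75% of all genes. Without an RPKM minimum 1 was higher, against 3.8% of all genes, and with length-decile medians subtracted 1 was higher, against 4.07%. At 5 RPKM or more 0 were lower, against 1.52% of all such genes. With the reciprocal of 0.8 as the fold they were 6 and 7, against 10.3% and 9.59% of all genes. With a fold of 2 none was lower (0), against 0.686%. At 5 RPKM or more, where 63 genes remain, the intervals above 1 numbered 15 in place of 23. That is 23.8% of the 63, against 27.1% of all such genes. Depth limits the small HSP genes most, with 56 to 400 reads each over both libraries.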
